A study of Mus musculus with 16 samples.

Results

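A group of genes that mark radial glia-like neural stem cells and early progenitors were followed in the dentate gyrus of aged p16Ink4a mice: 9 named members (Nes, Gfap, Sox2, Hopx, Hes5, Vim, Fabp7, Lpar1 and Pax6) of the 24421 gene names in the expression tables. They were chosen by name from the list of markers, and all 9 were present in every library and passed the filter on low values. The tissue was dissected from both hemispheres of male C57BL/6 mice 1 year of age, and each of the 16 libraries was made from total RNA of 2 pooled mice. The libraries fall into 4 groups of 4: p16Ink4a +/+ mice kept sedentary (p16 WT CTL, libraries 1 to 4), p16Ink4a -/- mice kept sedentary (p16 KO CTL, libraries 5 to 8), p16Ink4a +/+ mice with a running wheel for 12 days (p16 WT RUN, libraries 9 to 12) and p16Ink4a -/- mice with the wheel for 12 days (p16 KO RUN, libraries 13 to 16). The null allele was made in FVB mice and bred into C57BL/6, is carried by every cell of the animal, and leaves the overlapping p19Arf product functional.

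In the subgranular zone of the adult dentate gyrus, quiescent stem cells with a radial process produce intermediate progenitors, which divide and give rise to new granule neurons. The stem cells are recognised by intermediate filaments (Nes, Gfap and Vim), by transcription factors that keep progenitors undifferentiated (Sox2, Pax6 and the Notch target Hes5), by the homeodomain-only protein Hopx of quiescent stem cells, by the brain fatty acid binding protein Fabp7 and by Lpar1, a receptor for lysophosphatidic acid. None of these genes belongs to the stem cell alone: Gfap, Sox2, Hopx, Hes5, Vim and Fabp7 are also expressed by mature astrocytes, Nes and Vim by cells of blood vessels, Vim by ependyma and Lpar1 by oligodendrocytes. In whole tissue, fewer cells of a type and less RNA per cell cannot be told apart.

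The promoters of 5 members are shown because Gfap, Sox2, Hopx and Fabp7 were the 4 members called between sedentary genotypes, and Hes5 is a direct target of Notch. Each sequence gives the 250 bases before the RefSeq start site in GRCm38.p6, the build of the expression tables (mm10), 5' to 3' on the strand of the gene. They lie at chr4:154960673-154960922 (plus strand), chr11:102897201-102897450 (minus strand), chr10:57784673-57784922 (plus strand), chr3:34649745-34649994 (plus strand) and chr5:77115124-77115373 (minus strand, the first of 2 Hopx start sites). Capitals mark a match, on either strand, to the core of the Notch effector RBPJ (TGGGAA), the CCAAT box (CCAAT), the GC box (GGGCGG), the TATA box (TATAAA), the STAT site (TTCNNNGAA) or the SOX site (AACAAT), and matches to the E-box (CANNTG) are left in lower case.
Hes5: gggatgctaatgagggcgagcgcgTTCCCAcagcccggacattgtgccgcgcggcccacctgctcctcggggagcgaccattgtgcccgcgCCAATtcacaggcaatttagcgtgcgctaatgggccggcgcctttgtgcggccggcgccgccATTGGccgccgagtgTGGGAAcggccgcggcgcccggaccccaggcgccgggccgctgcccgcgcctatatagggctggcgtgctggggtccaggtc
Gfap: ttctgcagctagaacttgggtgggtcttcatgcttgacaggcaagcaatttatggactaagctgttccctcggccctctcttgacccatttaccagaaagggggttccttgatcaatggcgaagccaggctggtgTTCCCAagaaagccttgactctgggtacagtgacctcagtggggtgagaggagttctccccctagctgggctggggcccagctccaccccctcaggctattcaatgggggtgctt
Fabp7: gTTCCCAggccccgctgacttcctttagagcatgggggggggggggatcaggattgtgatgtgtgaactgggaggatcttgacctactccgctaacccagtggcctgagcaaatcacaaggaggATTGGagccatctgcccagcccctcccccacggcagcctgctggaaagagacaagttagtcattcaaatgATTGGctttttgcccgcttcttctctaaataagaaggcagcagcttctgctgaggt
Sox2: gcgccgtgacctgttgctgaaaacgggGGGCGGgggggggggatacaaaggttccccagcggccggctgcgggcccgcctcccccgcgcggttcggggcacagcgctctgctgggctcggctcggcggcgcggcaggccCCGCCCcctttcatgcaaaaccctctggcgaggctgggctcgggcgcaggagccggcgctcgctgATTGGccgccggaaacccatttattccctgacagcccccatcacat
Hopx: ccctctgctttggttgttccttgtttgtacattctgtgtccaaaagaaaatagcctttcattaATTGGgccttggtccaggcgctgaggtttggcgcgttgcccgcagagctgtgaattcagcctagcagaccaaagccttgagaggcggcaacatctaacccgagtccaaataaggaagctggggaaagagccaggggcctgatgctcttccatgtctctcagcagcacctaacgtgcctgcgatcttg
Hes5 held 2 RBPJ cores, on the plus strand at -82 to -77 and on the minus strand at -226 to -221, and Gfap and Fabp7 held 1 each, at -115 to -110 and -249 to -244. No RBPJ core was found in these windows of Sox2, Hopx, Nes, Vim, Lpar1 and Pax6, and 21.6% of the 32851 mouse promoter windows of the same length held one. The other letters were common or rare among all windows to different degrees, with 33.8% for the CCAAT box, 32.7% for the GC box, 12.4% for the TATA box, 7.02% for the STAT site, 9.42% for the SOX site and 66.2% for the E-box. Hes5 and Fabp7 held 2 CCAAT boxes each, Sox2 held 2 GC boxes and 1 CCAAT box, and Hopx held 1 CCAAT box. Among the promoters not printed, Vim held a TATA box at -32 to -27, Nes held 2 GC boxes, and a SOX site overlapped a CCAAT box in the third start site of Lpar1. Promoter windows were found for all 9 members, 13 in total.

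In mm10, Nes (chromosome 3, 87971093 to 87980451), Sox2 (chromosome 3, 34650005 to 34652460), Vim (chromosome 2, 13574311 to 13582826) and Pax6 (chromosome 2, 105668896 to 105698410) lie on the plus strand, as do Fabp7 (chromosome 10, 57784923 to 57788450) and Hes5 (chromosome 4, 154960923 to 154962371). Gfap (chromosome 11, 102887336 to 102897200), Hopx (chromosome 5, 77086986 to 77115123) and Lpar1 (chromosome 4, 58435252 to 58553491) lie on the minus strand. Hes5 and Lpar1 are on the chromosome of the deleted locus, 65.7 Mb and 30.7 Mb from Cdkn2a. Sox2 lies within the long noncoding RNA gene Sox2ot on the same strand, listed at 14.5 to 26.8 scaled TPM, and Pax6 overlaps Elp4 on the opposite strand, listed at 9.66 to 11.2 scaled TPM. The strand setting of the abundance estimates is not given in the sources used here, so a part of the Pax6 values may be reads of Elp4. Because Sox2ot shares the strand of Sox2, a part of the Sox2 values may be its reads under any strand setting.

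The tables hold abundances and no counts, so the read depth of each library is unknown. The median coverage of a gene relative to the average library ranged from 0.621 to 1.95, the highest being libraries 2 (1.95) and 7 (1.68). Within groups the libraries correlated at 0.972 to 0.985 over the genes tested, with no identical pair. Cdkn2a, which encodes p16, was listed at 0 to 0.586 TPM in p16 WT CTL and 0 to 0.344 TPM in p16 KO CTL, levels too low to check the genotype labels. Markers of dentate granule neurons summed to 860 to 2360 TPM per library and markers of CA1 and CA3 pyramidal neurons to 408 to 993 TPM, the latter highest in library 8 of p16 KO CTL, where granule markers were lowest. A subset of 3 sedentary libraries stood apart: library 2 of p16 WT CTL and libraries 6 and 7 of p16 KO CTL. In these 3 libraries 8 nuclear long noncoding RNAs summed to 479 to 977 TPM, against 1830 to 2530 TPM in the other 13. Astrocyte markers summed to 4800 to 5410 TPM in them, against 3890 to 4430 TPM in the other 13, and endothelial markers to 110 to 145 TPM, against 168 to 234 TPM. The main results of the markers in Sets A to D and the interaction are therefore given with and without them, a choice made after seeing the data.

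The level of the 9 markers ran from abundant to scarce. TPM divides by gene length, so levels are compared between genes on this scale only. Gfap was the most abundant, at a mean of 592 scaled TPM over the 16 libraries, rank 238 of all names. Hopx (147), Fabp7 (96.1), Sox2 (57.2), Vim (42.8), Hes5 (18.5), Lpar1 (8.87) and Pax6 (7.10) followed in mean scaled TPM, and Nes was the lowest, at 3.6 scaled TPM and rank 12368. Between the lowest and the highest library, Hopx varied the most, by 2.98 times, and Sox2 the least, by 1.73 times. Library 6 was the highest for Sox2, Hopx and Fabp7 and the lowest for Nes. With the 4 groups ordered by mean, neighbouring groups overlapped for each of the 9 genes, with an exact permutation p of at least 0.0571 (the smallest possible with 4 against 4 is 0.0286). Hes5 ran from 13.4 to 22.0 scaled TPM in p16 WT CTL, 17.0 to 23.2 in p16 KO CTL, 13.5 to 23.3 in p16 WT RUN and 15.3 to 20.6 in p16 KO RUN. Lpar1 ran from 5.69 to 12.2 scaled TPM in p16 WT CTL, 8.72 to 13.3 in p16 KO CTL, 6.97 to 8.40 in p16 WT RUN and 7.06 to 10.2 in p16 KO RUN. The 2 sedentary groups held both the lowest and the highest Lpar1 values. p16 KO CTL was the highest group by mean for Gfap, Sox2, Hopx, Hes5, Fabp7, Lpar1 and Pax6, and p16 KO RUN for Nes and Vim.

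**Figure D1:**
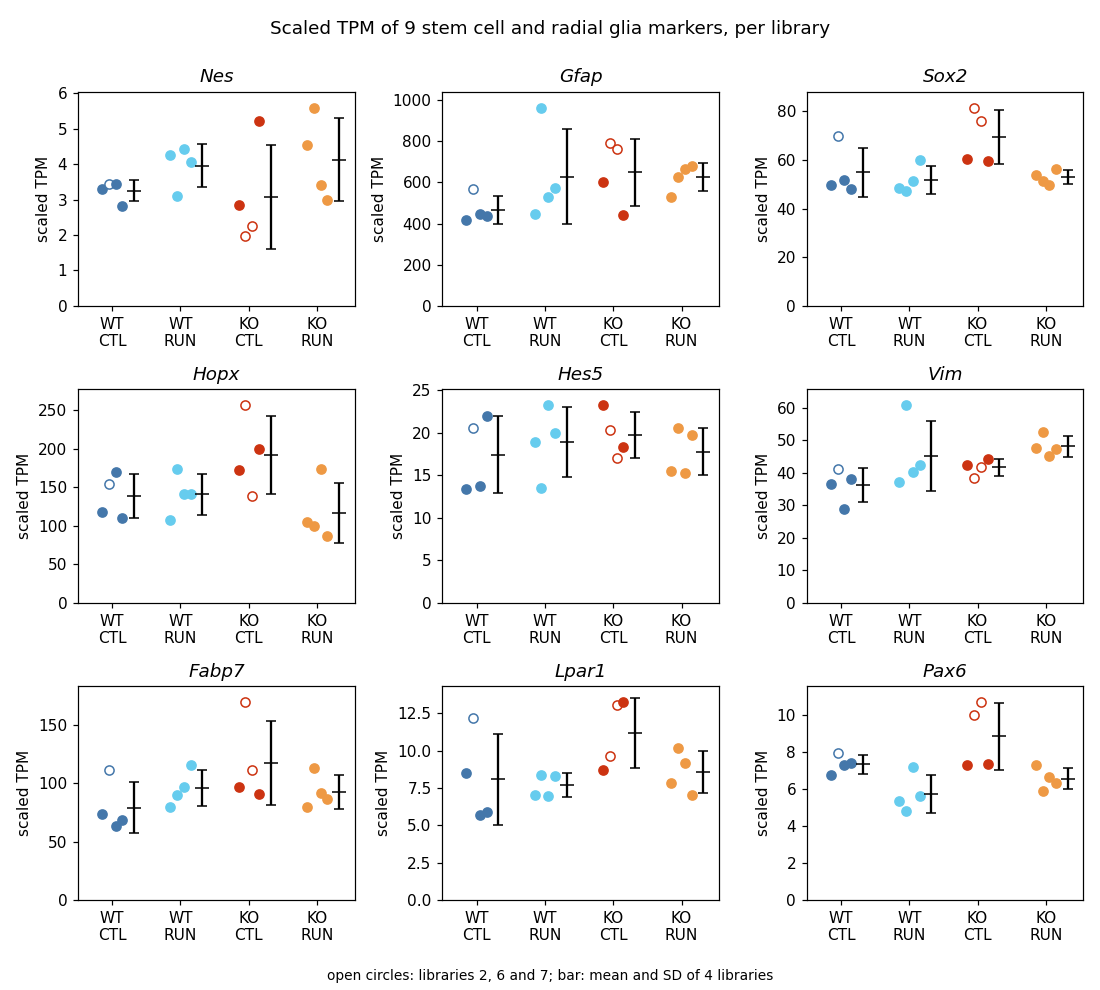
Scaled TPM of each marker (vertical axes from 0) in the 16 libraries of 4 groups; points are libraries, open circles are libraries 2, 6 and 7, and the bar is the mean with SD of 4 libraries. Sox2 in p16 KO CTL, at 59.6 to 81.5, lies above all 4 p16 KO RUN libraries, and libraries 6 and 7 hold its 2 highest values.

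The loss of p16 in sedentary mice was examined in Set B, where p16 KO CTL is set against p16 WT CTL. Of the 9 markers, 4 were higher in the knockout at an unadjusted limma p under 0.05, the threshold the study used, and none was lower. They were the astroglial filament gene Gfap, the stem cell factor Sox2, the quiescence marker Hopx and the radial glia lipid carrier Fabp7. Over all genes tested 6.69% passed this threshold in Set B, 3.15% in the higher direction. The adjusted p was 0.625 for each of the 4 (limma, Benjamini-Hochberg), and 0% of genes passed an adjusted p under 0.05. The median log2 fold change of the 9 markers was 0.34, against -0.01 for all genes.

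Gfap was at 415, 567, 449 and 437 scaled TPM in p16 WT CTL and at 602, 792, 762 and 440 in p16 KO CTL. All knockout libraries but library 8 lay above the wild type. The log2 fold change was 0.45 ± 0.19 (SE, 4 against 4 libraries here and in every Set, unadjusted limma p = 0.0401, exact permutation p = 0.0857).
Sox2 was at 49.7, 69.8, 51.7 and 48.1 scaled TPM in p16 WT CTL and at 60.5, 81.5, 76.0 and 59.6 in p16 KO CTL. The groups overlapped only through library 2, the highest of the wild type. The log2 fold change of Sox2 was 0.34 ± 0.15 (SE, unadjusted limma p = 0.0424, exact permutation p = 0.114).
Hopx was at 118, 154, 170 and 110 scaled TPM in p16 WT CTL and at 172, 257, 138 and 199 in p16 KO CTL, with library 7 inside the wild-type range. Its log2 fold change was 0.46 ± 0.20 (SE, unadjusted limma p = 0.0477, exact permutation p = 0.114).
Fabp7 was at 73.5, 111, 63.3 and 68.4 scaled TPM in p16 WT CTL and at 96.8, 170, 111 and 90.8 in p16 KO CTL. Again library 2 was the only wild-type library within the knockout range. Its log2 fold change was 0.56 ± 0.23 (SE, unadjusted limma p = 0.0358, exact permutation p = 0.114).
No marker separated the groups without overlap in Set B, as 2.7% of all genes did.

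The remaining markers did not pass in Set B. The Notch target Hes5 had a log2 fold change of 0.20 ± 0.18 (SE, exact permutation p = 0.343), the filament gene Vim 0.21 ± 0.11 (exact p = 0.0571), the lysophosphatidic acid receptor Lpar1 0.51 ± 0.26 (exact p = 0.114) and Pax6 0.25 ± 0.15 (exact p = 0.257). Nes, which encodes the filament protein nestin, was at 2.85, 1.96, 2.26 and 5.21 scaled TPM in p16 KO CTL, against 2.82 to 3.44 in p16 WT CTL. Library 8 was the highest and libraries 6 and 7 the lowest of all 8, and the log2 fold change was -0.18 ± 0.28 (SE, exact permutation p = 0.686). Without library 8 Nes passed as lower, at -0.46.

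The calls of Set B lay close to the threshold and depended on single libraries. Without library 1, 4 or 6 in turn, none of the 9 passed, and without library 2 there were 6 calls. The share of all genes moved alike, to 3.51%, 4.22% and 3.96% without library 1, 4 or 6 and to 17.5% without library 2. Gfap lost its call without library 1, 3, 4, 5, 6 or 7, Sox2 without 1, 3, 4, 6 or 7, Hopx without 1, 4, 5, 6 or 8 and Fabp7 without 1, 3, 4, 6 or 7. Over all single omissions the log2 fold change of Gfap ran from 0.34 to 0.62, that of Sox2 from 0.26 to 0.46, that of Hopx from 0.31 to 0.61 and that of Fabp7 from 0.36 to 0.73. Without libraries 2, 6 and 7 together, 5 of 9 passed, against 6.68% of all genes: Sox2 (log2 fold change 0.27), Hopx (0.51), Fabp7 (0.46), Vim (0.34) and Lpar1 (0.70), while Gfap was at 0.25 and did not pass. That fit rests on 2 knockout and 3 wild-type libraries, and in it the median log2 fold change was -0.60 for granule neuron genes, 0.59 for pyramidal neuron genes, 0.58 for oligodendrocyte genes and 1.18 for ependymal genes, whose part in the marker values was not tested. With all 8 libraries and the nuclear RNA level as a covariate, none of the 9 passed in Set B, where 4.2% of all genes did. In that fit Gfap was at 0.21, Sox2 at 0.16, Hopx at 0.44 and Fabp7 at 0.30. With all 16 libraries in 1 fit, Gfap and Hopx lost their calls at the same values and Lpar1, at 0.51, gained one, and with TPM as deposited Hopx lost its call at 0.40. Without a filter or without a variance trend, Gfap, Sox2, Hopx and Fabp7 all lost their calls at the same values. After quantile normalization Gfap (0.33) and Hopx (0.41) lost theirs.

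Running in the knockout was examined in Set A, p16 KO RUN against p16 KO CTL, which shares the p16 KO CTL libraries with Set B on the opposite side. Of the 9 markers, 3 were lower after running (Sox2, Hopx and Pax6) and 1 was higher (Vim) at an unadjusted limma p under 0.05. Over all genes 18.5% passed in Set A, 10.7% higher and 7.74% lower, and 0.0173% passed an adjusted p under 0.05. The 4 markers had adjusted p-values of 0.174 to 0.233 (limma, Benjamini-Hochberg). The median log2 fold change of the 9 was -0.30, against 0.02 for all genes.

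Sox2 was at 60.5, 81.5, 76.0 and 59.6 scaled TPM in p16 KO CTL and at 53.9, 51.5, 49.8 and 56.3 in p16 KO RUN. All 4 running libraries lay below all 4 sedentary ones. The log2 fold change was -0.38 ± 0.11 (SE, unadjusted limma p = 0.00612, exact permutation p = 0.0286), or 0.769 times.
Hopx was at 172, 257, 138 and 199 scaled TPM in p16 KO CTL and at 105, 99.6, 174 and 86.4 in p16 KO RUN. All running libraries but library 15 lay below the sedentary range. The log2 fold change of Hopx was -0.74 ± 0.24 (SE, unadjusted limma p = 0.0125, exact permutation p = 0.0857), or 0.599 times.
Pax6, a homeobox factor of radial glia and early progenitors, was at 7.27, 10.0, 10.7 and 7.31 scaled TPM in p16 KO CTL and at 7.27, 5.90, 6.63 and 6.33 in p16 KO RUN. The groups were separated narrowly, with libraries 5 and 8 close to library 13. Its log2 fold change was -0.41 ± 0.15 (SE, unadjusted limma p = 0.0246, exact permutation p = 0.0286).
Vim, the filament gene of radial glia and reactive astrocytes, was at 42.4, 38.3, 41.7 and 44.4 scaled TPM in p16 KO CTL and at 47.6, 52.7, 45.2 and 47.3 in p16 KO RUN. Every running library was above every sedentary one, and the log2 fold change was 0.21 ± 0.07 (SE, unadjusted limma p = 0.0133, exact permutation p = 0.0286), or 1.16 times.
In all, 3 of the 9 markers separated the groups without overlap on the scaled values, against 10.4% of all genes. In TPM as deposited the Pax6 groups overlapped, with library 13 at 7.39 and libraries 5 and 8 at 7.38 and 7.12.

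The other 5 did not pass in Set A. Lpar1 had a log2 fold change of -0.37 ± 0.17 (SE, exact permutation p = 0.143), Fabp7 -0.30 ± 0.19 (exact p = 0.257), Hes5 -0.15 ± 0.13 (exact p = 0.371), Gfap -0.02 ± 0.18 (exact p = 0.943) and Nes 0.48 ± 0.32 (exact p = 0.229). Nes was at 4.53, 5.60, 3.42 and 2.98 scaled TPM in p16 KO RUN. Library 8, at 5.21, was the only sedentary knockout library above 3, and without it Nes passed, at a log2 fold change of 0.76. Without libraries 6 and 7, the lowest for Nes, the value was 0.056. Lpar1 passed without library 5 (-0.48) or 14 (-0.46).

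Without libraries 6 and 7, Set A kept 2 calls, against 8.49% of all genes. This leaves libraries 5 and 8 as the sedentary side, and in this fit the median log2 fold change was 0.50 for granule neuron genes, -0.41 for pyramidal neuron genes and -0.45 for oligodendrocyte genes, whose part in the marker values was not tested. Hopx was at a log2 fold change of -0.73 and Sox2 at -0.18. Hopx had nearly the same size as with all libraries, while the Sox2 value was smaller by more than 1.5 times. Pax6 was at -0.16 and Vim at 0.15, neither of which passed, and Gfap, not called in either case, turned from -0.02 to 0.28. Leaving out single libraries left the calls of Sox2, Hopx and Vim in place (log2 fold changes of -0.45 to -0.30, -0.95 to -0.59 and 0.17 to 0.24), though Vim, at the same 0.21, lost its call when all 16 libraries shared 1 fit, while Pax6 lost its call without library 6, 7, 14 or 16 (log2 fold changes of -0.34, -0.31, -0.36 and -0.40). Libraries 6 and 7 had the lowest nuclear RNA and the highest astrocyte levels of the 16. With the nuclear RNA level as a covariate, 9.42% of all genes passed in Set A. In that fit Sox2 was at -0.19 and passed, Hopx at -0.76 and passed, and Pax6 at -0.17 and Vim at 0.16 did not. The part of the astrocyte level was not tested.

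**Figure D2:**
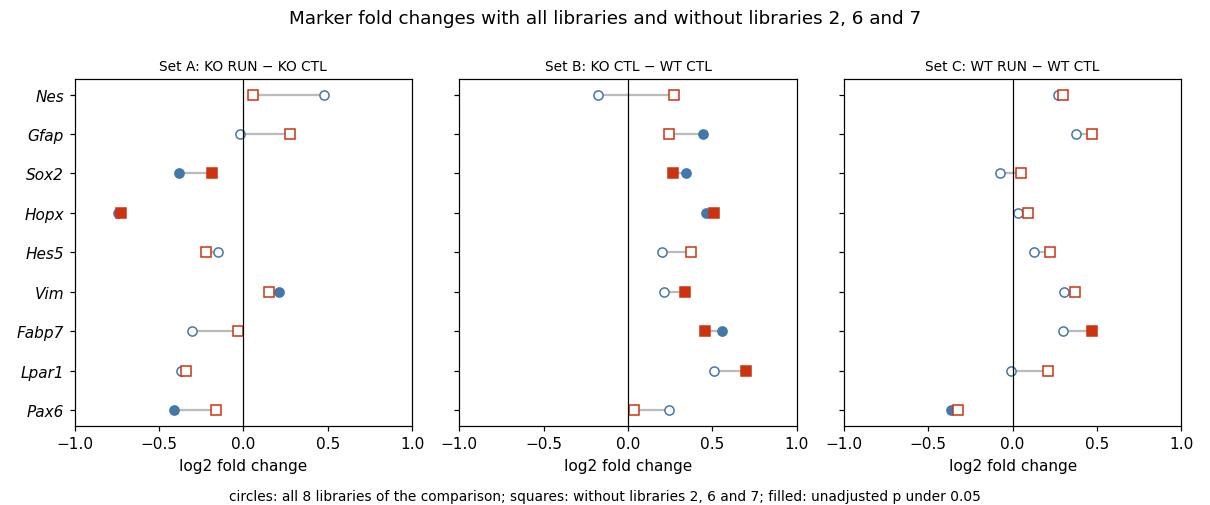
Log2 fold change (horizontal axes) of the 9 markers in Sets A, B and C with all libraries (circles) and without libraries 2, 6 and 7 (squares), filled where the unadjusted limma p was under 0.05. Hopx stays near -0.74 in Set A, whereas Pax6 and Sox2 move towards 0.

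Running in the wild type was examined in Set C, p16 WT RUN against p16 WT CTL. Of the 9 markers only Pax6 passed, with a lower level after running, where 4.81% of all genes passed and 0% had an adjusted p under 0.05. Pax6 was at 6.71, 7.95, 7.26 and 7.37 scaled TPM in p16 WT CTL and at 5.36, 4.78, 7.17 and 5.60 in p16 WT RUN. All running libraries but library 11 lay below the sedentary range. The log2 fold change was -0.36 ± 0.14 (SE, unadjusted limma p = 0.0277, adjusted p = 0.985, exact permutation p = 0.0571). The call was lost without library 2, 4, 9, 10 or 12 (log2 fold changes of -0.36 to -0.28). No marker separated the groups in Set C, as 3.34% of all genes did. Sox2 and Hopx, lower after running in the knockout, had log2 fold changes of -0.07 ± 0.13 and 0.03 ± 0.17 (SE) in the wild type, with 95% intervals of -0.36 to 0.21 and -0.35 to 0.41. Gfap was at a log2 fold change of 0.37 ± 0.21 (SE, exact permutation p = 0.171), or 0.15 without library 10, and passed without library 9 at 0.52. Nes was at 0.27 ± 0.16 (SE, exact permutation p = 0.114) and passed without library 10 at 0.38. Without library 2, Fabp7 passed in Set C at a log2 fold change of 0.47, from 0.30 ± 0.18 (SE, exact permutation p = 0.2) with all libraries. Library 10 was the highest of the 16 for Gfap, at 964 scaled TPM, and for Vim, at 61.0 scaled TPM.

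Set D compared p16 KO RUN with p16 WT CTL. Of the 9 markers only Gfap and Vim passed, both higher. Over all genes 8.63% passed, 4.97% in this direction, and 0% had an adjusted p under 0.05. Nes, which also encodes a filament protein, was at 0.30 ± 0.20 (SE) and did not pass. Gfap was at 531, 626, 664 and 680 scaled TPM in p16 KO RUN against 415 to 567 in p16 WT CTL. Only library 13 lay within the wild-type range, and the log2 fold change was 0.42 ± 0.11 (SE, unadjusted limma p = 0.00439, adjusted p = 0.313, exact permutation p = 0.0571). Vim was at 45.2 to 52.7 scaled TPM in p16 KO RUN and at 36.5, 41.3, 28.8 and 38.2 in p16 WT CTL. These groups did not overlap, as for 5.68% of all genes, and the log2 fold change was 0.42 ± 0.11 (SE, unadjusted limma p = 0.00337, adjusted p = 0.296, exact permutation p = 0.0286). Both calls held when any 1 library was left out (log2 fold changes of 0.37 to 0.52 for Gfap and 0.32 to 0.49 for Vim), but Gfap, at the same 0.42, lost its call when all 16 libraries shared 1 fit. Hopx passed without library 15 (-0.49) and Nes without library 16 (0.44). Without library 2, Gfap was at 0.52 and Vim at 0.49, and Fabp7, not called with all libraries, passed at 0.43, where 11.2% of all genes passed. Among other lists in that fit, 5 of 14 astrocyte genes, 4 of 8 ependymal genes and 3 of 8 oligodendrocyte precursor genes were higher. So were 3 of 10 interneuron genes, while 2 of 10 granule neuron genes were lower. The part of these lists in the marker values was not tested. Sox2 was at -0.04 ± 0.11 (SE) in Set D and Hes5 at 0.06 ± 0.19 (SE).

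Set E compared p16 KO RUN with p16 WT RUN. None of the 9 markers passed an unadjusted limma p under 0.05, where 3.87% of all genes did and 0.00577% passed an adjusted p under 0.05. No marker separated the groups, as 2.46% of all genes did. This comparison uses none of libraries 2, 6 and 7. The log2 fold changes ran from -0.31 ± 0.21 (SE) for Hopx to 0.20 ± 0.14 (SE) for Pax6. The interval was narrowest for Sox2, -0.14 to 0.21, at 48.6, 47.2, 51.3 and 59.9 scaled TPM in p16 WT RUN. Without library 10 Vim passed at a log2 fold change of 0.27 and Gfap at 0.28, without library 15 Hopx passed at -0.52, and without library 11 Pax6 at 0.31.

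**Figure D3:**
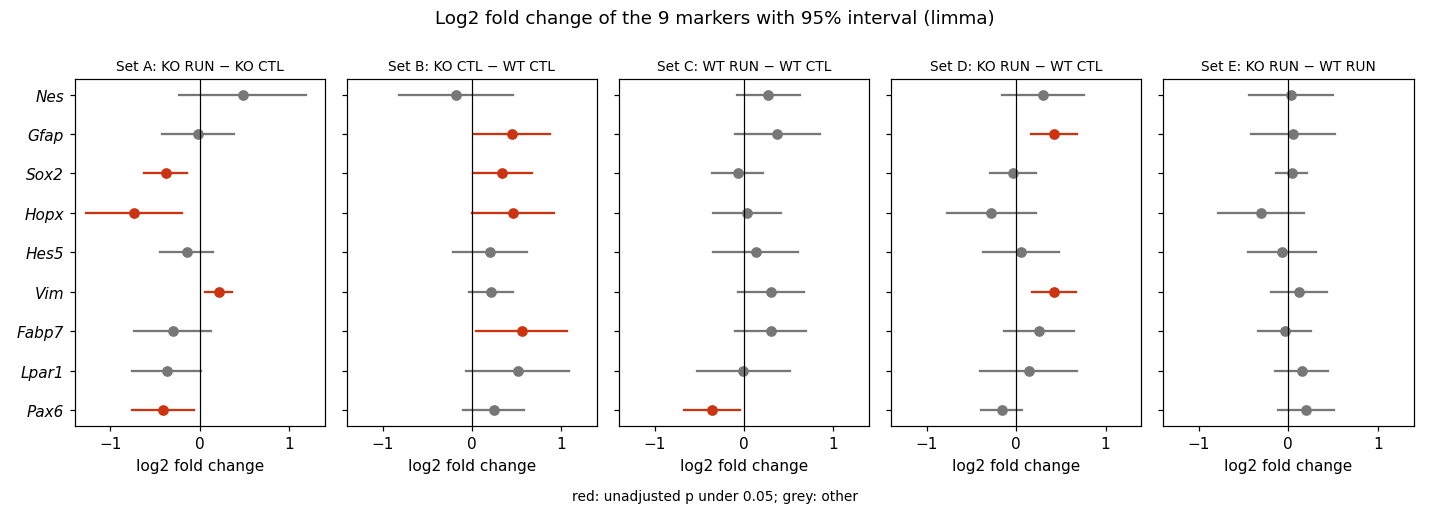
Log2 fold change of each marker (points, horizontal axes) with its 95% interval from limma in Sets A to E, in red where the unadjusted p was under 0.05. Set A holds 4 red intervals and Set B 4, and Set E holds none.

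Whether running acted differently in the knockout and the wild type was tested as the genotype by running interaction over all 16 libraries. Of the 9 markers, 2 passed, both with a lower response in the knockout, where 5.48% of all genes passed, 2.54% in this direction, and 0% had an adjusted p under 0.05. For Hopx the interaction was -0.77 ± 0.32 (log2, SE, limma adjusted p = 0.797), made of -0.74 in the knockout and 0.03 in the wild type, where Hopx was at 108, 173, 141 and 141 scaled TPM in p16 WT RUN. For Fabp7 it was -0.60 ± 0.28 (log2, SE, limma adjusted p = 0.797, with a 95% interval of -1.20 to 0.00), made of -0.30 and 0.30. Fabp7 was at 79.6, 89.6, 96.9 and 116 scaled TPM in p16 WT RUN and at 79.6, 113, 91.8 and 86.4 in p16 KO RUN, so that the running groups overlapped fully while the sedentary groups lay apart but for library 2. For Sox2 it was -0.31 ± 0.17 (SE) and for Pax6, lower after running in both genotypes, -0.05 ± 0.21 (SE), neither of which passed. The number of markers called fell to 1 with a mean TPM of at least 1, no filter, a pseudocount of 1 or 0.01 or TPM as deposited. It was also 1 with no variance trend or the nuclear RNA covariate. In these fits 3.98% to 5.47% of all genes passed. Without libraries 2, 6 and 7 both calls held, at -0.82 for Hopx and -0.50 for Fabp7, where 7.25% of all genes passed. For Fabp7 this was then made of -0.029 in the knockout and 0.47 in the wild type, so that the value in Set A was lost and that in Set C was larger. In the same fit, 8 of 10 oligodendrocyte, 4 of 10 pyramidal neuron and 4 of 10 interneuron genes passed with negative interactions. Of 10 granule neuron genes, 3 passed with positive ones. With all libraries the numbers that passed were 1, 1, 1 and 0. By sign alone, 0, 1, 0 and 10 of 10 genes in these lists were positive with all libraries. The part of these lists in the marker values was not tested. Without library 2 alone, Sox2 (-0.43) and Lpar1 (-0.58) also passed. Leaving out single libraries moved Hopx between -0.98 and -0.62, its call being lost without library 1, 4, 6, 10, 14 or 16 (-0.72 to -0.62). Fabp7 moved between -0.77 and -0.41 and lost its call on the omission of any 1 of libraries 1, 3, 4, 6, 7, 10, 11, 12, 13, 15 and 16 (-0.63 to -0.41).

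Other genes of the stem cell program were read from a list of 30, of which 29 passed the filter. In Set B 2 were higher, Sox9 (log2 fold change 0.29) and Sox21 (0.52, each with a limma adjusted p = 0.625), both SOX family factors of neural progenitors, and none was lower. Such counts were near the share of all genes in Set B (6.69%), Set D (8.63%) and Set E (3.87%), and nothing is read from them about the list. In Set A 3 were higher and 4 lower, where 18.5% of all genes passed. The lower ones included Sox9 (-0.43, limma adjusted p = 0.124), Sox21 (-0.69, adjusted p = 0.185) and Id4 (-0.44, adjusted p = 0.18), an inhibitor of proneural factors that keeps stem cells quiescent, and the higher ones included its relative Id3 (0.25, adjusted p = 0.184). Sox9 was at 32.7 to 41.6 scaled TPM in p16 KO CTL and at 25.4 to 28.6 in p16 KO RUN, and the 2 ranges did not overlap. No gene of the list passed in Set C. In Set D 2 were higher, Id3 (0.38, limma adjusted p = 0.438) and Prom1 (0.29, adjusted p = 0.531), a membrane protein of ependyma and stem cells. In Set E only Id3 passed (0.42, limma adjusted p = 0.394), at 64.9 to 77.4 scaled TPM in p16 KO RUN against 50.7 to 54.8 in p16 WT RUN. The interaction was negative for Sox9 (-0.33), Sox21 (-0.69) and Msi2 (-0.19), the 3 of 29 that passed (limma adjusted p = 0.797 each), where 5.48% of all genes did. The median log2 fold change of the list was -0.06 in Set A and 0.11 in Set B. Without libraries 2, 6 and 7 the list had 2 higher and 1 lower of 29 in Set A, where 8.49% of all genes passed, and 4 higher in Set B, where 6.68% passed. In Set D it then had 4 higher and 1 lower, where 11.2% passed. In Set C 1 was higher, where 5.88% passed, and 3 passed with a negative interaction, where 7.25% of all genes passed.

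Genes of the following stages were read in the same way. Of 10 proliferation genes, none was lower in any Set with all libraries, and those higher numbered 5 in Set A, 3 in Set D and 6 in Set E, where 10.7%, 4.97% and 2.11% of all genes were higher. Mki67, the marker of cycling cells, was at 1.83 to 2.14 scaled TPM in p16 KO RUN and at 0.534 to 0.992 in p16 KO CTL (log2 fold change 1.33, limma adjusted p = 0.0861). In Set E, Top2a, a topoisomerase of dividing cells, was at a log2 fold change of 1.59 and the mitotic kinase Cdk1 at 1.60 (limma adjusted p = 1 each), both from levels under 1 scaled TPM in p16 WT RUN. Of 12 intermediate progenitor genes, 1 was higher (Eomes) and 1 lower (Elavl2, log2 fold change -0.48, limma adjusted p = 0.266) in Set A. This count was near the share of all genes that passed there, 18.5%. The list also had Neurog2 higher in Set B (0.84, adjusted p = 0.625), Ccnd1 lower in Set D (-0.47, adjusted p = 0.536) and Eomes higher in Set E. Of all genes, 6.69%, 8.63% and 3.87% passed in Sets B, D and E, and nothing is read from these counts about the list. Without libraries 2, 6 and 7, the progenitor list had 1 higher in Sets A, B and C each and 1 higher and 1 lower in Set D. The newborn neuron list then had 1 higher and 1 lower in Set A, none in Set B, 1 lower in Set C and 1 higher and 2 lower in Set D. Of all genes, 8.49%, 6.68%, 5.88% and 11.2% passed in Sets A, B, C and D of these fits. Nothing is read from these small counts about the 2 lists. Eomes, which defines these cells, was at 0.382 to 0.781 scaled TPM in p16 KO RUN and at 0.141 to 0.369 in p16 KO CTL. Its log2 fold change was 0.98 in Set A (limma adjusted p = 0.215) and 1.92 in Set E (adjusted p = 1). The interaction passed for 6 of the 10 proliferation genes and for Eomes (2.07, limma adjusted p = 0.797), all positive, where 2.95% of all genes passed in this direction. Without libraries 2, 6 and 7, the proliferation list had 4 higher in Set A, none called in Set B, 1 lower in Set C and 3 higher in Set D. In these fits 8.49%, 6.68%, 5.88% and 11.2% of all genes passed in either direction. The interaction then passed for 5 proliferation genes, all positive, where 7.25% of all genes passed. Of 10 newborn neuron genes, 2 were higher and 1 lower in Set A, where 10.7% of all genes were higher and 7.74% lower. Among them were Igfbpl1 (1.32, limma adjusted p = 0.165) and Stmn1 (-0.35, adjusted p = 0.114). Stmn1 was also lower in Set C (-0.27, adjusted p = 0.937) and Set D (-0.26, adjusted p = 0.23), and the list had Sox4 higher in Set B (0.35, adjusted p = 0.625) and Sox4 (0.35, adjusted p = 0.467) and Igfbpl1 (1.21, adjusted p = 0.574) higher in Set D. Of all genes, 6.69%, 4.81% and 8.63% passed in Sets B, C and D, and nothing is read from the counts in Sets A to D about the list. In all, 3 genes of the list were higher in Set E, where 2.11% of all genes were: Calb2 (0.46), Igfbpl1 (1.30) and Sox4 (0.28), each with a limma adjusted p = 1.

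Lists of other cell types, some of which share the markers, are given beside the share of all genes, and their part in the results was not tested. In Set A 10.7% of all genes were higher and 7.74% lower, in Set B 3.15% and 3.54% and in Set D 4.97% and 3.66%. Of 14 astrocyte genes, 6 were lower and none higher in Set A, among them Slc6a11 (-0.32, limma adjusted p = 0.147), Gja1 (-0.41, adjusted p = 0.178) and S100b (-0.41, adjusted p = 0.231), and 3 were higher in Set B, among them Ntsr2 (0.42, adjusted p = 0.625). In Set B the list with the most calls was that of oligodendrocyte precursors, of which 5 of 8 were higher, with sums of 204 to 242 TPM in p16 KO CTL and 180 to 212 TPM in p16 WT CTL. Without libraries 2, 6 and 7, Set B had 5 of 14 astrocyte genes, 4 of 8 ependymal genes and 1 of 8 oligodendrocyte precursor genes higher, together with 2 of 10 pyramidal neuron genes, and 2 of 10 granule neuron genes lower, where 6.68% of all genes passed. With all libraries, the astrocyte genes summed to 3960 to 5410 TPM in p16 KO CTL, where libraries 6 and 7 were the highest, and to 3920 to 4430 TPM in p16 KO RUN. Without libraries 6 and 7, 2 astrocyte genes were lower and 1 higher in Set A. In that fit 8.49% of all genes passed, a share that also applies to the other Set A counts below without libraries 6 and 7. Of 10 oligodendrocyte genes, 5 were lower in Set A, among them Mbp (-0.72, limma adjusted p = 0.167) and Cnp (-0.39, adjusted p = 0.192), and 3 were lower without libraries 6 and 7. They summed to 1560 to 2580 TPM in p16 KO CTL and 1240 to 1590 TPM in p16 KO RUN. Of 11 reactive astrocyte genes tested, 3 were higher in Set D beside Gfap and Vim, with a sum of 177 to 210 TPM in p16 KO RUN and 136 to 153 TPM in p16 WT CTL. Of 8 ependymal genes, 3 were higher in Set D, with a sum of 22.7 to 41.5 TPM in p16 KO RUN and 11.3 to 22.3 TPM in p16 WT CTL. Of 10 endothelial genes, 2 were higher in Set A, Pecam1 (0.53, limma adjusted p = 0.25) and Tek (0.66, adjusted p = 0.264), and none passed without libraries 6 and 7. Microglial genes had 3 of 10 lower in Set A and 2 higher in Set B, and none of 10 in either Set without libraries 2, 6 and 7, in which they summed to 615 to 735 TPM against 473 to 573 TPM in the other 13.

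The level of each marker was also compared, library by library, with the mean level of 18 lists, as 162 relations with p-values from permutation adjusted over all of them. Lpar1 followed oligodendrocytes (Pearson r = 0.84, Spearman rho = 0.81, permutation p = 6e-05 and 0.00019, adjusted p = 0.00486). The value was 0.75 without the 2 libraries farthest from the median of the list, 0.82 over the 13 libraries other than 2, 6 and 7, and 0.88 after the group means were removed. Lpar1 ran against granule neurons (r = -0.85, rho = -0.84, permutation p = 2e-05 and 0.00012, adjusted p = 0.00324), with -0.78 without the 2 farthest and -0.89 over the 13. It also followed pyramidal neurons of CA1 and CA3 (r = 0.77, rho = 0.72, permutation p = 0.00056 and 0.00245, adjusted p = 0.0106), with 0.61 and 0.86. Library 8, the highest in pyramidal markers and the lowest in granule markers, also had the highest Lpar1, at 13.3 scaled TPM.

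Vim followed ependymal genes (r = 0.73, rho = 0.75, permutation p = 0.00095 and 0.00129, adjusted p = 0.0135), with 0.59 without the 2 farthest libraries and 0.74 over the 13. Gfap followed oligodendrocyte precursors (r = 0.74, rho = 0.80, permutation p = 0.00118 and 0.0003, adjusted p = 0.0137), with 0.76 and 0.71. Nes followed endothelial genes (r = 0.79, rho = 0.72, permutation p = 0.0002 and 0.00235, adjusted p = 0.00972), with 0.56 and 0.62, where the adjusted p over the 13 was 0.311. Sox2 followed astrocyte genes over 16 libraries (r = 0.84, rho = 0.51, permutation p = 0.0004 and 0.0461, adjusted p = 0.00995), but this relation rested on libraries 2, 6 and 7, since r was 0.14 over the other 13. The same held for Sox2 against nuclear long noncoding RNAs, with r = -0.84 over 16 (rho = -0.41, permutation p = 0.00043 and 0.122, adjusted p = 0.00995) and 0.17 over 13. It held for Pax6 against the same list too, with r = -0.76 over 16 (rho = -0.39, permutation p = 0.00108 and 0.139, adjusted p = 0.0135) and 0.11 over 13.

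**Figure D4:**
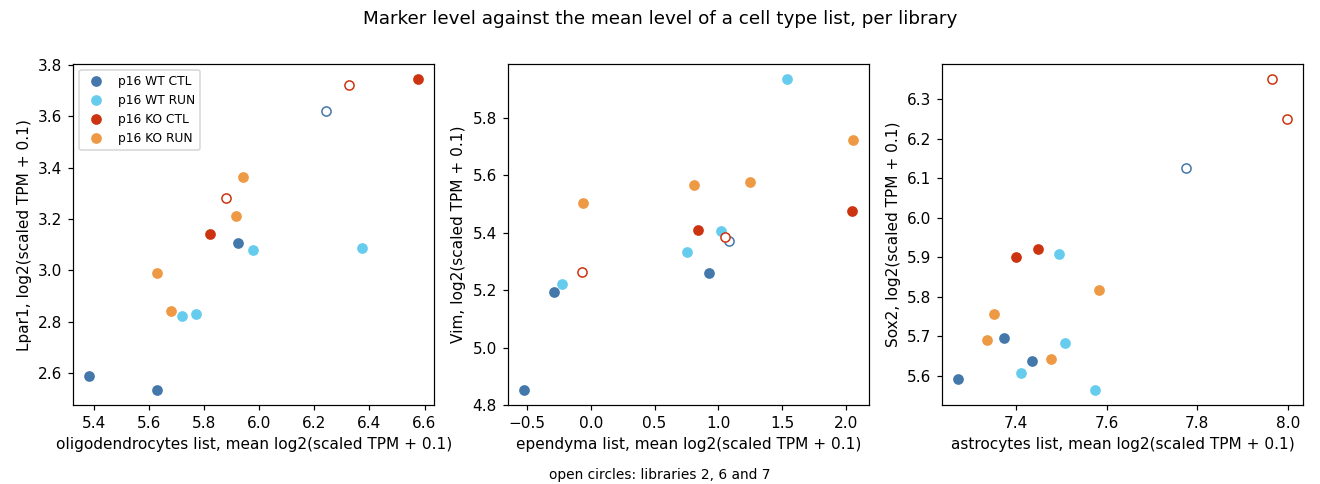
Level of Lpar1, Vim and Sox2 (vertical axes) against the mean level of oligodendrocyte, ependymal and astrocyte lists (horizontal axes), both as log2(scaled TPM + 0.1), with 1 point per library coloured by group and libraries 2, 6 and 7 open. Lpar1 and Vim follow their lists through all groups (r = 0.84 and 0.73), while Sox2 is flat over the 13 filled points (r = 0.14).

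Among the 36 pairs of markers, Sox2 and Pax6 (r = 0.77, rho = 0.62, permutation p = 0.00052 and 0.0126, adjusted p = 0.0101) and Sox2 and Fabp7 (r = 0.75, rho = 0.62, permutation p = 0.00056 and 0.0124, adjusted p = 0.0101) varied together over 16 libraries. Over the 13 libraries these fell to 0.30 and 0.45. Gfap and Vim had r = 0.62 over 16 (rho = 0.58, permutation p = 0.0093 and 0.0213, adjusted p = 0.0908), 0.36 without libraries 3 and 10, and 0.80 over the 13 (adjusted p = 0.0461). The genes with the most similar pattern over 16 libraries, taken by the highest Pearson r among genes averaging 1 TPM or more, are given as a description. For Sox2 they were Nap1l4 (0.96), Aamp (0.95) and the stem cell nuclear receptor Nr2e1 (0.95), with 0.93, 0.74 and 0.78 over the 13 libraries. For Lpar1 they were Basp1 (0.96), Stmn3 (0.95) and Gm12070 (0.95), and for Pax6 H2afv (0.92), Erp29 (0.91) and Mme (0.90). For Vim they were the extracellular sulfatase Sulf1 (0.90), the matrix proteoglycan Bgn (0.89) and Nt5dc3 (0.86), and for Fabp7 they included Tril (0.89) and Etfa (0.85). For Gfap they were Acsl6 (0.87), Itgb2 (0.87) and Itpr2 (0.86), for Nes Itm2a (0.86), Gm5512 (0.83) and Srsf12 (0.82), for Hopx Lppos (0.82), Inhbb (0.81) and Lrp4 (0.77), and for Hes5 Gm14057 (0.82), Tpbg (0.78) and Zbtb41 (0.74).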

How the data were processed

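RNA of the dentate gyrus was sequenced in 16 libraries, 4 per group. Per the labels and the methods of the study, the authors called bases with bcl2fastq 2.20, masked adapters with cutadapt 1.11, trimmed with ERNE, aligned to mm10 with STAR and estimated abundances with StringTie. The deposited TPM values (per gene length, with the same sum in every library), the deposited FPKM values and the deposited coverage were read for each library; the authors deposited no counts with them, so their count test (DESeq2) was not run here, and intervals for depth are not given. Rows that carried 1 name were added up, which left 24421 names. TPM was divided by a library factor, the median ratio to the mean library over 13226 genes of at least 1 TPM in all 16 libraries, and tested as log2(scaled TPM + 0.1) with limma 3.58.1 (R 4.3.3, mean-variance trend) over 17317 genes of mean TPM of at least 0.1. Fold changes are on that scale, which understates those of low genes. Each Set was fitted on its 8 libraries, the interaction on all 16, with Benjamini-Hochberg adjustment over all genes. The exact permutation test was two-sided over 35 splits, on the same log2 values, and correlations used 100000 permutations (two-sided). The limma steps were tested on simulated data. FPKM, coverage and other alternatives entered only as checks. All 9 members were named with values. From the other lists, counts were taken and at most 4 called genes of smallest p were named. For each member the 3 genes of most similar pattern were named, except 1 that is not reported here. The members and lists were chosen with earlier results of these data known. Libraries are pools of separate mice, and p-values measure the spread between such pools. Promoter sequences are from RefSeq (GRCm38.p6).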

Additional observations from a re-analysis of the deposited data

Results flagged for a closer look

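Sox2 in p16 WT CTL was singled out because 1 sample lay far from the others: library 2 was at 69.8 scaled TPM and the other 3 at 48.1 to 51.7 (gap over range 0.837, above the Dixon limit for 4 samples). With 36 groups examined, chance alone picks about 1 group in 20. The interaction of Hopx was flagged, at -0.77 on the log2 scale (limma adjusted p = 0.797, passing the unadjusted threshold). Hopx was lower after running in 3 of 4 knockout libraries than in any sedentary knockout library. Its call was lost on some single omissions. The interaction of Fabp7 was also flagged, at -0.60 (limma adjusted p = 0.797, at the edge of the unadjusted threshold). Its call was lost on most single omissions, and without libraries 6 and 7 the value in the knockout was -0.029.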

How the results depend on the processing

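No paired analysis was possible because the replicate numbers run from 1 to 16 and no number is shared between groups. Of 1134 values of single markers under alternatives, 979 kept their direction and their side of the threshold, 79 lost and 28 gained a call, and 48 changed sign, the cause of which was not tested. The number of markers called was 2 in Set A with a nuclear RNA covariate and 2 without libraries 2, 6 and 7 (main value 4). Of all genes, 9.42% and 8.49% passed in these fits (main value 18.5%). In Set B (main value 4) it was 0 without a filter, without a variance trend or with the nuclear RNA covariate, and 2 after quantile normalization. Of all genes, 6.49%, 6.15%, 4.2% and 7.29% passed in these fits (main value 6.69%). In Set C (main value 1) it was 2 with all 16 libraries in one fit and 2 with the nuclear RNA covariate, and in Set D (main value 2) 1 and 4. In these 2 fits 5.64% and 5.2% of all genes passed in Set C (main value 4.81%). In Set D 7.42% and 13.1% did (main value 8.63%). For the interaction (main value 2) it was 1 with a mean TPM of at least 1, no filter, a pseudocount of 1 or 0.01, TPM as deposited, no variance trend or the nuclear RNA covariate. Of all genes, 3.98% to 5.47% passed in these fits (main value 5.48%). Leaving out 1 library gave 3 to 5 in Set A, 0 to 6 in Set B, 0 to 1 in Set C, 2 to 3 in Set D, 0 to 2 in Set E and 0 to 4 for the interaction. The share of all genes moved as well, from 11.7% to 27.4% in Set A, 3.22% to 17.5% in Set B and 3.07% to 5.88% in Set C. It moved from 6.53% to 11.2% in Set D, 2.81% to 6.05% in Set E and 3.57% to 13.7% for the interaction.

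Signs changed as follows, in log2 values. Gfap in Set A was 0.043 with TPM as deposited, 0.12 after quantile normalization, 0.28 with the nuclear RNA covariate and 0.28 without libraries 2, 6 and 7. Without those libraries Nes in Set B was 0.27, Sox2 in Set C 0.049, Lpar1 in Set C 0.21, Sox2 in Set D 0.085, the interaction of Nes -0.24 and that of Pax6 0.16. With the nuclear RNA covariate Nes in Set B was 0.066, Lpar1 in Set C 0.14, Sox2 in Set D 0.048, the interaction of Nes -0.007 and that of Pax6 0.13. With TPM as deposited Lpar1 in Set C was 0.006 and the interaction of Pax6 0.006. Leaving out 1 library moved Gfap in Set A between -0.20 and 0.086, Hopx in Set C between -0.074 and 0.15, Lpar1 in Set C between -0.15 and 0.21, Sox2 in Set C between -0.15 and 0.049, Hes5 in Set D between -0.058 and 0.18, Sox2 in Set D between -0.094 and 0.085 and Lpar1 in Set D between -0.002 and 0.36. It moved Gfap in Set E between -0.090 and 0.28, Nes in Set E between -0.13 and 0.17, Sox2 in Set E between -0.007 and 0.11, Hes5 in Set E between -0.23 and 0.037, Fabp7 in Set E between -0.14 and 0.056, the interaction of Vim between -0.18 and 0.060 and that of Pax6 between -0.13 and 0.065. None of these values had passed the threshold with all libraries. The depth of each library is unknown, and levels near 1 TPM are the least precise.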
